A study of Saccharomyces cerevisiae with 18 samples.

Results

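The filamentation MAP kinase pathway of Saccharomyces cerevisiae was followed through 9 genes on 18 expression arrays. The genes were the membrane sensors MSB2 and SHO1, the kinases STE20, STE7 and KSS1, the transcription factor gene STE12 with the genes of its inhibitors DIG1 and DIG2, and PGU1. They were chosen by gene symbol, and each symbol had 1 probe set, so that 9 of the 5469 probe sets of S. cerevisiae with a single symbol were described. These genes, and the further gene lists used below, were chosen with earlier results of these data known. Their p-values may therefore not be independent of the choice. All 9 probe sets exceeded background on all 18 arrays. PGU1 was included because its RNA had differed between strains in these same arrays, so its differences between strains are given as a description with no test. Total RNA was measured on Affymetrix Yeast Genome 2.0 arrays, and values are deposited log2 RMA values, on which a difference of 1 is a 2-fold change. Probe sets differ in brightness, so a level was compared between groups for the same gene and not between genes.

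All strains were of the Sigma1278b background, a lineage used for its adhesive and filamentous growth. The labels describe KV63 and KV473 as FLO11 mutants, in which the gene was deleted, and KV68 and KV2668 as WT. Each of the 4 strains was grown as colonies on solid medium, for 5 days at 30°C on YPS (yeast extract, peptone and sucrose), and KV473 and KV2668 were also grown in liquid medium. The same growth text is attached to the liquid cultures as to the colonies, so the culture time in liquid is uncertain. There were 3 arrays in each of the 6 groups. Nothing in the labels says whether the 3 came from separate cultures, so the p-values measure the spread between arrays, which may be technical. The comparisons asked how RNA differed between the labelled genotypes and between growth as a colony and in liquid.

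In this pathway the mucin-like sensor Msb2 and the membrane protein Sho1 act upstream of the GTPase Cdc42 and the kinase Ste20. Ste20 starts a cascade through Ste11 and Ste7 to the MAP kinase Kss1, which relieves the inhibition of Ste12 by Dig1 and Dig2. Ste12, with its partner Tec1, switches on genes for adhesion, cell elongation and invasion of the medium, among them the adhesin gene FLO11 and PGU1, which encodes a secreted endopolygalacturonase that cuts pectin. Several of the same proteins also serve mating (the pheromone branch) and osmotic stress (the HOG branch), so RNA levels of shared components belong to no single branch.

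Some features of the arrays precede the results. FLO11 RNA opposed the labels, at 12.76 to 13.31 on the 9 arrays labelled FLO11 mutant and at 4.65 to 5.43 on the 9 arrays labelled WT, so groups are named here by strain and every strain difference is the arrays labelled WT minus the arrays labelled FLO11 mutant. The strains also differed in mating-type RNA: the mean of 6 a-cell markers minus the mean of 4 alpha-cell markers was 3.36 to 3.73 on the 6 KV2668 arrays and -5.75 to -4.31 on the 9 arrays of KV473 and KV63. All 6 a-cell markers were higher and all 4 alpha-cell markers lower in KV2668 than in KV473 in both media, each by over 2-fold at an adjusted p under 0.05 in limma. For KV68 on solid medium, replicates 1 and 2 had -6.01 and -6.16 and replicate 3 had 0.43. This last array correlated with the others of its group at 0.917 and 0.909, against at least 0.993 between all other replicates, and the values without it are given beside the KV68 results that rest on it. Genes on chromosome XII had a median difference of 0.81 between KV2668 and KV473 on solid medium and of 0.87 in liquid, and none of the 9 genes lies on that chromosome. Whether mating type, chromosome XII or the adhesin itself had a part in any difference was not tested, and between KV2668 and KV473 they cannot be told apart. In RNA from whole cultures, fewer cells of a kind and less RNA per cell cannot be told apart either.

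**Figure D1:**
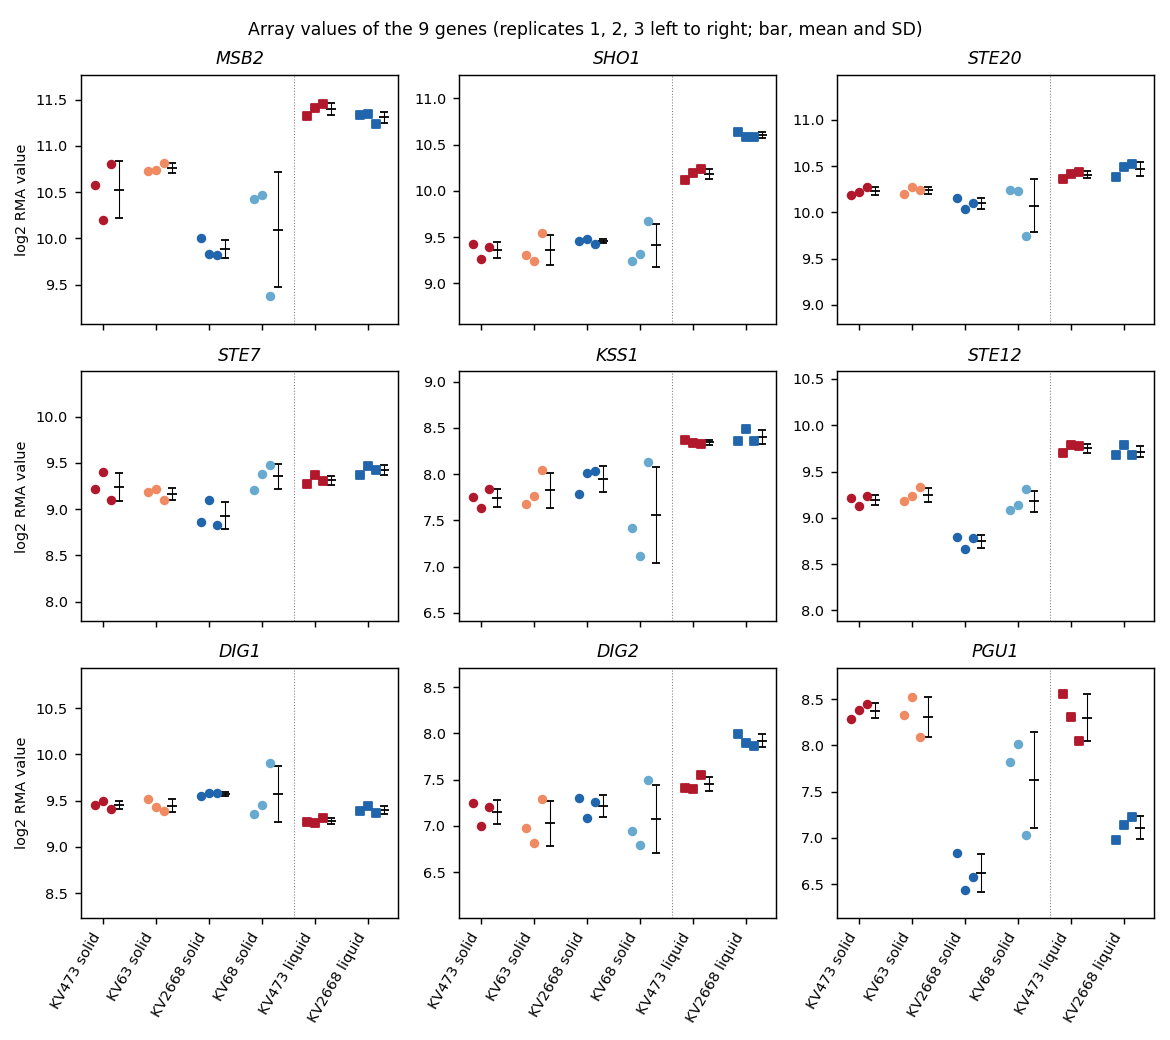
Log2 RMA value of each of the 9 genes (vertical axis) on each of the 18 arrays, by strain and medium (horizontal axis). Points are arrays, bars are the mean and SD of 3, and the range of the axis is the same in every panel though its position is not. The liquid arrays of MSB2, SHO1, STE20, KSS1 and STE12 lie above the solid ones of all strains. PGU1 lies at 6.44 to 7.23 on the KV2668 arrays, a range that also holds replicate 3 of KV68 solid.

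Colonies had less RNA of most of these genes than liquid cultures. In KV2668, 8 of the 9 genes were lower on solid than in liquid medium and DIG1 was higher, at an adjusted p under 0.05 in limma. The 8 include PGU1, which was chosen from strain differences on these same arrays. In KV473, 6 were lower (MSB2, SHO1, STE20, KSS1, STE12 and DIG2), DIG1 was higher, and STE7 and PGU1 did not pass. Changes between media were common on the arrays as a whole. Of the 5424 probe sets tested, 45.9% were lower and 34.4% higher on solid medium in KV2668, and 49.2% were lower and 32% higher in KV473. The median difference of the 9 genes was -0.50 in KV2668, beside -0.10 for all probe sets, and -0.30 in KV473, beside -0.16. Over the 8 genes without PGU1 the median was -0.60 in KV2668 and -0.43 in KV473. With a change of over 2-fold also required, MSB2 and SHO1 were lower in KV2668, where 6.95% of all probe sets were lower and 10.7% higher. In KV473 none of the 9 passed that stricter rule, although 7 had an unadjusted p under 0.05, with 6.67% of all probe sets lower and 11.2% higher. Without KV473 solid replicate 3, MSB2 differed by -1.01 in KV473 and 1 gene passed it. No array of one medium overlapped those of the other for the 7 genes that passed in KV473 and for all 9 in KV2668, which held for 82.5% and 82.2% of all probe sets.

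**Figure D2:**
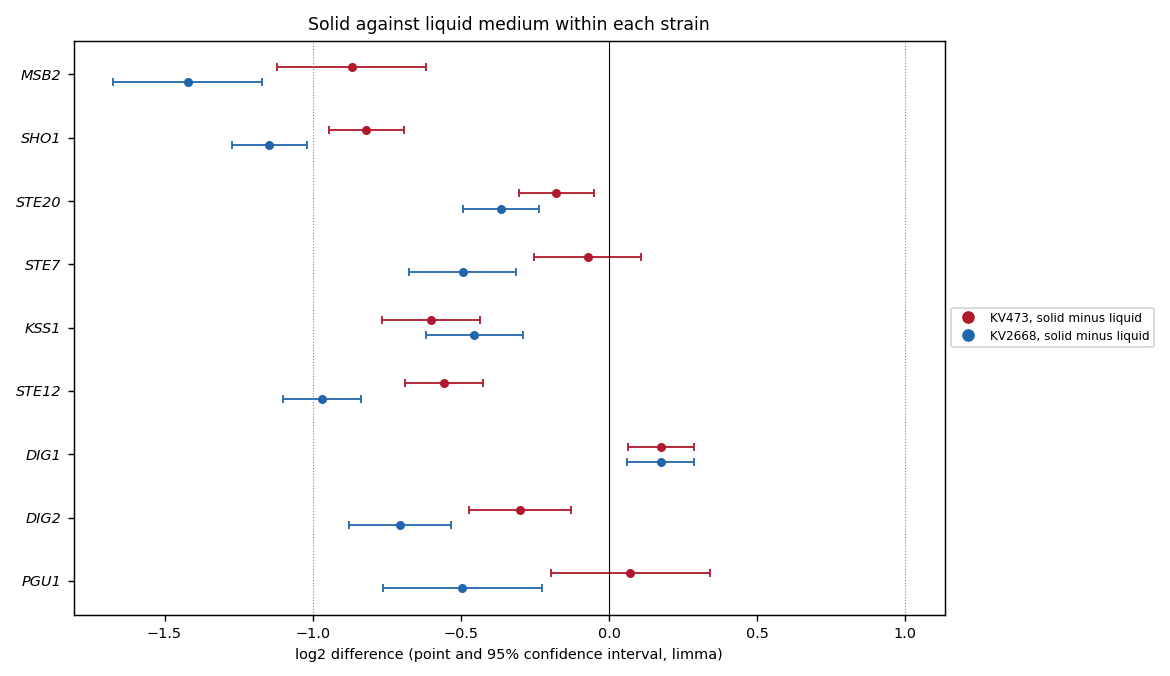
Log2 difference between solid and liquid medium (horizontal axis) for each gene in KV473 (red) and KV2668 (blue), with the 95% confidence interval of limma, 3 arrays per group. Dotted lines mark a 2-fold change. MSB2 lies furthest left in both strains, at -0.87 and -1.42, and DIG1 lies to the right of 0 in both.

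MSB2 (YGR014W, chromosome VII), the mucin-like sensor, showed the largest difference between media of the 9 genes. In liquid medium its 3 values were 11.32, 11.41 and 11.46 in KV473 and 11.34, 11.35 and 11.24 in KV2668. On solid medium they were 10.58, 10.20 and 10.81 in KV473 and 10.00, 9.83 and 9.82 in KV2668. The strains overlapped in liquid, all colonies were below all liquid cultures, and the KV2668 colonies were below those of KV473. MSB2 was 1.83-fold lower on solid medium in KV473 (log2 difference -0.87, SE 0.12, adjusted p = 9.74e-06) and 2.68-fold lower in KV2668 (-1.42, SE 0.12, adjusted p = 6.84e-08). The other colonies had 10.72, 10.74 and 10.82 in KV63 and 10.43, 10.47 and 9.38 in KV68. Replicate 3 of KV68 was thus the lowest of the 18 arrays, while the other 2 were within the range of KV473.

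SHO1 (YER118C, chromosome V), the membrane anchor that brings Ste11 to the cell surface, was lower on every colony array than on any liquid array. Its values in liquid were 10.12, 10.19 and 10.23 in KV473 and 10.64, 10.58 and 10.58 in KV2668. On solid medium they were 9.43, 9.27 and 9.39 in KV473, 9.46, 9.48 and 9.43 in KV2668, 9.31, 9.24 and 9.55 in KV63, and 9.24, 9.31 and 9.68 in KV68. The KV2668 colonies lay narrowly above those of KV473, and both overlapped with the colonies of KV63 and KV68. The liquid arrays fell into 2 separate levels, the higher in KV2668. SHO1 was 1.76-fold lower on solid medium in KV473 (-0.82, SE 0.059, adjusted p = 1.87e-08) and 2.21-fold lower in KV2668 (-1.15, SE 0.059, adjusted p = 6.93e-10).

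Among the kinases, KSS1 (YGR040W, chromosome VII), the MAP kinase, differed between media in both strains. Its liquid values were 8.37, 8.33 and 8.32 in KV473 and 8.36, 8.48 and 8.35 in KV2668, and its solid values were 7.75, 7.64 and 7.83 in KV473 and 7.78, 8.01 and 8.04 in KV2668. It was lower on solid medium by 0.60 log2 units in KV473 (log2 difference -0.60, SE 0.076, adjusted p = 5.75e-06) and by 0.45 in KV2668 (-0.45, SE 0.076, adjusted p = 8.46e-05). Colonies of KV63 had 7.67, 7.76 and 8.04. Those of KV68 had 7.42, 7.12 and 8.13, so that its replicates 1 and 2 were the lowest of all arrays and replicate 3 the highest of the colonies.

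STE7 (YDL159W, chromosome IV), the MAP kinase kinase, covered a narrow range, and its medium difference was seen in KV2668. On solid medium KV2668 had 8.86, 9.09 and 8.83, the 3 lowest of all 18 arrays, against 9.37, 9.47 and 9.43 in liquid (-0.49, SE 0.084, adjusted p = 9.61e-05). In KV473 the values were 9.22, 9.40 and 9.10 on solid and 9.27, 9.37 and 9.31 in liquid, and the groups overlapped. The difference there was -0.07, with a 95% interval of -0.25 to 0.11 and an adjusted p of 0.438. KV63 had 9.18, 9.21 and 9.10 and KV68 had 9.21, 9.38 and 9.48.

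STE20 (YHL007C, chromosome VIII), the p21-activated kinase at the head of the cascade, changed least among the genes that were lower on solid medium. Its solid values were 10.19, 10.22 and 10.28 in KV473 and 10.16, 10.04 and 10.10 in KV2668, beside 10.36, 10.42 and 10.44 and 10.38, 10.49 and 10.52 in liquid. It was lower on solid medium by 0.18 (log2 difference -0.18, adjusted p = 0.0135) in KV473 and by 0.36 (-0.36, adjusted p = 6.44e-05) in KV2668. The KV473 difference did not pass with all 18 arrays fitted in 6 groups (adjusted p = 0.133) or with each array centred on its median outside chromosome XII (adjusted p = 0.0510). The remaining colonies lay between 10.20 and 10.27 in KV63 and between 9.74 and 10.24 in KV68, whose lowest array was again replicate 3.

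STE12 (YHR084W, chromosome VIII), the transcription factor at the end of the cascade, had lower values on every colony array than on any liquid array. The liquid values were 9.70, 9.79 and 9.77 in KV473 and 9.68, 9.79 and 9.68 in KV2668. The colonies had 9.21, 9.13 and 9.24 in KV473, 9.18, 9.24 and 9.33 in KV63, 9.09, 9.14 and 9.31 in KV68, and 8.80, 8.66 and 8.78 in KV2668. The liquid groups overlapped, 3 of the colony groups overlapped at an intermediate level, and the KV2668 colonies formed a lower level of their own. STE12 was 1.47-fold lower on solid medium in KV473 (-0.56, SE 0.061, adjusted p = 1.26e-06) and 1.96-fold lower in KV2668 (-0.97, SE 0.061, adjusted p = 5.11e-09).

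The genes of the inhibitors of Ste12 moved in opposite directions. DIG1 (YPL049C, chromosome XVI) had 9.45, 9.50 and 9.41 on solid and 9.27, 9.26 and 9.31 in liquid medium in KV473, and 9.55, 9.58 and 9.59 on solid and 9.38, 9.45 and 9.36 in liquid in KV2668. It was higher on solid medium in KV473 (0.18, SE 0.052, adjusted p = 0.00707) and in KV2668 (0.17, SE 0.052, adjusted p = 0.00748). With all 18 arrays in 6 groups neither passed, at adjusted p-values of 0.142 and 0.146. DIG2 (YDR480W, chromosome IV) was lower on solid medium, with 7.25, 7.00 and 7.20 against 7.41, 7.40 and 7.55 in KV473 and 7.31, 7.08 and 7.26 against 8.00, 7.90 and 7.86 in KV2668. Its difference was -0.30 (SE 0.080, adjusted p = 0.00331) in KV473, which did not pass with 18 arrays in 6 groups (adjusted p = 0.0878), and -0.71 (SE 0.080, adjusted p = 1.92e-06) in KV2668. Quantile normalization gave -0.57 in KV473. The other colonies lay between 9.35 and 9.91 for DIG1 and between 6.80 and 7.50 for DIG2, and replicate 3 of KV68 gave the highest of each.

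PGU1 (YJR153W, chromosome X), the secreted endopolygalacturonase, was chosen for its differences between strains, and its group means ran from 6.62 to 8.37. On solid medium KV473 had 8.29, 8.38 and 8.45 and KV63 had 8.33, 8.52 and 8.09. The KV68 colonies had 7.82, 8.01 and 7.04, and the KV2668 colonies 6.84, 6.44 and 6.57. In liquid medium KV473 had 8.56, 8.30 and 8.04 and KV2668 had 6.97, 7.14 and 7.23. Ordered by mean, KV2668 solid (6.62 ± 0.21, SD, n = 3) was lowest, followed by KV2668 liquid (7.11 ± 0.13) and KV68 solid (7.62 ± 0.52). KV473 liquid (8.30 ± 0.26), KV63 solid (8.31 ± 0.22) and KV473 solid (8.37 ± 0.082) shared the highest level and overlapped. The 2 lowest groups did not overlap, and KV68 overlapped with KV2668 liquid only through its replicate 3.

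The choice of PGU1 rested on strain differences that include these same KV2668 arrays. Its test between media is therefore not independent of that choice, and the p-value cannot be taken at face value. In KV2668 PGU1 was 1.41-fold lower on solid medium (-0.50, SE 0.12, adjusted p = 0.00223), with no overlap between the 3 colonies and the 3 liquid cultures. Quantile normalization gave -0.87 for this difference. In KV473 the difference was 0.07 with a 95% interval of -0.20 to 0.34 (adjusted p = 0.598). As a description, PGU1 was 3.38-fold lower in KV2668 colonies than in KV473 colonies (log2 difference -1.76), 2.28-fold lower in liquid (-1.19) and 1.61-fold lower in KV68 than in KV63 (-0.69). Without replicate 3 of KV68 the last difference was -0.39. Between strains of the same label, PGU1 was higher in KV68 than in KV2668 by 1.01, or by 1.30 without that array, and KV63 and KV473 differed by -0.06 with overlapping arrays.

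Between KV2668 and KV473 on solid medium the sensor MSB2 and the kinase and factor genes STE7 and STE12 were lower in KV2668, while SHO1 and both inhibitor genes did not pass. Of the 8 genes tested, 3 were lower and 1 (KSS1) higher at an adjusted p under 0.05, where 30.2% and 29.9% of all probe sets were. None was also past 2-fold, though 6 had an unadjusted p under 0.05 in limma. Under that stricter rule 1.79% of all probe sets were lower and 4.35% higher. MSB2 differed by -0.64 (SE 0.12, adjusted p = 0.000335), STE12 by -0.45 (SE 0.061, adjusted p = 3.04e-05) and STE7 by -0.31 (SE 0.084, adjusted p = 0.00581), and in each the arrays of the strains did not overlap. KSS1 was higher by 0.20 (SE 0.076, adjusted p = 0.0348) with overlapping arrays. Its adjusted p was 0.397 with all 18 arrays in 6 groups and 0.0637 to 0.141 without KV473 solid replicate 1 or 2 or KV2668 solid replicate 2 or 3. STE20 (-0.13, adjusted p = 0.0777), DIG1 (0.12, adjusted p = 0.0679), SHO1 (0.09, adjusted p = 0.193) and DIG2 (0.06, adjusted p = 0.515) did not pass. STE20 and DIG1 kept their side of the threshold under 8 of 10 other settings and SHO1 under 9, and the number of genes that passed ran from 3 to 6. The arrays of the strains were apart for 6 of the 8 genes, as they were for 62.1% of all probe sets. The median over the 8 genes without PGU1 was -0.03, beside -0.01 for all probe sets.

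Between the same strains in liquid medium DIG2 and SHO1 were higher in KV2668, and the 4 genes that passed on solid medium did not pass. DIG2 was higher by 0.47 (SE 0.080, adjusted p = 0.000215; 0.30 after quantile normalization) and SHO1 by 0.42 (SE 0.059, adjusted p = 3.37e-05). The arrays did not overlap for either, as for 65.4% of all probe sets. None of the 8 was lower and none was past 2-fold, though 3 had an unadjusted p under 0.05. Of all probe sets 28.6% were higher and 24.3% lower, and 4.5% and 3.78% under the stricter rule. MSB2 differed by -0.09 (95% interval -0.34 to 0.16), STE12 by -0.04 (-0.17 to 0.10), STE7 by 0.11 (-0.07 to 0.29) and KSS1 by 0.06 (-0.11 to 0.22). DIG1 differed by 0.12 (adjusted p = 0.0728) and STE20 by 0.06 (adjusted p = 0.432).

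**Figure D3:**
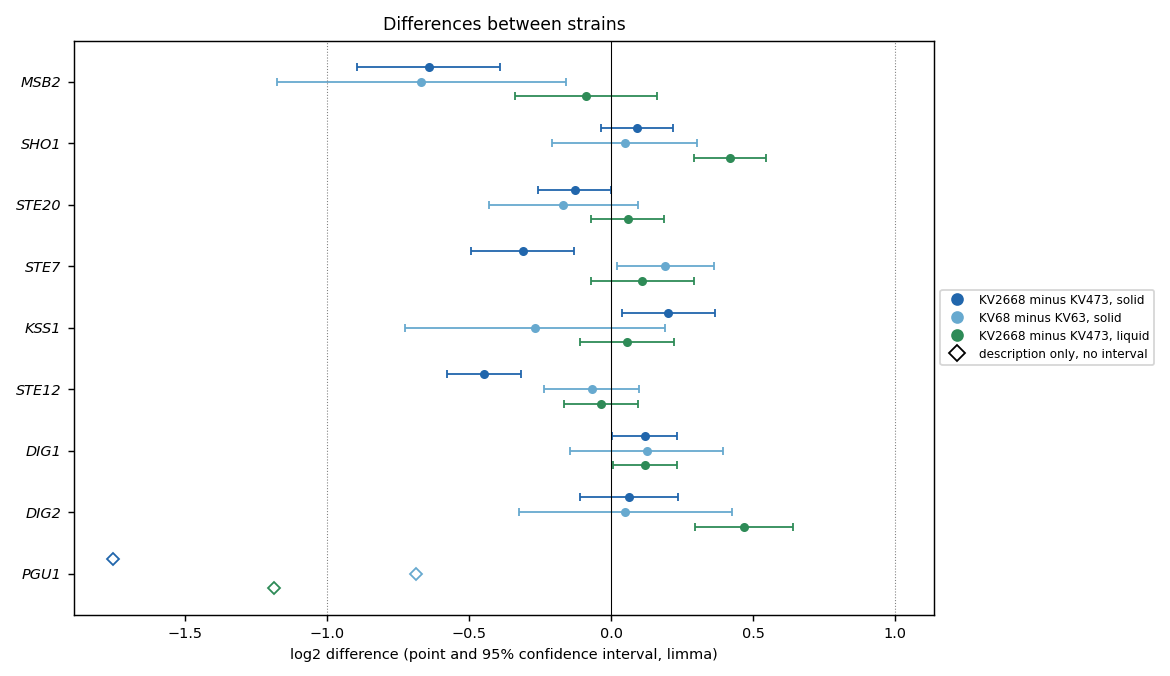
Log2 difference between strains (horizontal axis) for each gene, as the strain labelled WT minus the strain labelled FLO11 mutant, with the 95% confidence interval of limma. Dark blue is KV2668 against KV473 on solid medium, light blue KV68 against KV63 on solid medium and green KV2668 against KV473 in liquid. PGU1, given as a description, is drawn as open diamonds at -1.76, -0.69 and -1.19, and intervals are wide for KV68 against KV63, up to -1.18 to -0.16 for MSB2.

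In KV68 against KV63, the other pair, 0 of the 8 genes passed on solid medium at an adjusted p under 0.05, though STE7 and MSB2 had an unadjusted p under 0.05 in limma. Among all probe sets 2.3% were higher and 1.92% lower, and 0.0922% and 0.203% with over 2-fold also required. MSB2 had the largest difference, -0.67 (SE 0.23, adjusted p = 0.118), close in size to that of the other pair but with replicate 3 of KV68 far below the others. Without that array MSB2 was lower by 0.31 (log2 difference -0.31, SE 0.065, adjusted p = 0.00873) and KSS1 by 0.56 (-0.56, SE 0.11, adjusted p = 0.00651). With it KSS1 differed by -0.27 (SE 0.21, adjusted p = 0.467). STE7 differed by 0.19 (95% interval 0.02 to 0.36, adjusted p = 0.169) and STE12 by -0.07 (-0.24 to 0.10, adjusted p = 0.623), and without the array by 0.13 and -0.13 (adjusted p = 0.197 and 0.171).

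The difference between the pairs was itself tested, in a comparison added after these values had been seen. STE7 (-0.50, SE 0.13, adjusted p = 0.0101) and STE12 (-0.38, SE 0.099, adjusted p = 0.0122) were lower in KV2668 relative to KV473 than in KV68 relative to KV63, where 11.1% of all probe sets were lower and 14.5% higher. None of the 8 was past 2-fold, with 1.03% of all probe sets lower and 3.58% higher. Both also passed with any single array left out, and without replicate 3 of KV68 they were -0.44 and -0.31. MSB2 did not pass (0.03, 95% interval -0.63 to 0.68), and without that array its sign turned, to -0.33 (adjusted p = 0.108). KSS1 had 0.47 (adjusted p = 0.202), and 0.76 without replicate 3 of KV68 (adjusted p = 0.00063). PGU1 differed by -1.07, or -1.36 without that array, as a description.

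Strains of the same label could also be set side by side. KV68 colonies had more STE12 (0.43, SE 0.070, adjusted p = 0.000188) and STE7 (0.43, SE 0.091, adjusted p = 0.00164) than KV2668 colonies, so 2 of 8 were higher and none lower, with 21.2% of all probe sets higher and 21.4% lower. None of the 8 was past 2-fold, though 3 had an unadjusted p under 0.05 in limma, with 1.51% of all probe sets higher and 3.71% lower. In the fit with only the arrays of these 2 groups the adjusted p of STE7 was 0.0606. Without replicate 3 of KV68, 6 of the 8 passed: STE12 and STE7 were each higher by 0.37, MSB2 was also higher (0.57, adjusted p = 0.000807), and KSS1 (-0.68, adjusted p = 7.6e-05), DIG2 (-0.34, adjusted p = 0.0178) and DIG1 (-0.17, adjusted p = 0.0252) were lower. Between KV63 and KV473 0% of the probe sets and 0 of the 8 genes passed in limma, and 80 of the 5424 probe sets but 0 of the 8 genes had an unadjusted p under 0.05. Their largest difference was in MSB2, 0.23 with an interval of -0.23 to 0.70.

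With both strains of a label pooled on solid medium, MSB2 (-0.66, SE 0.16, adjusted p = 0.00712) and STE12 (-0.26, SE 0.091, adjusted p = 0.0482) were lower on the arrays labelled WT, where 11.6% of all probe sets were lower and 12.6% higher. Past 2-fold were 0.516% of all probe sets lower and 0.664% higher, and none of the 8 genes. This pooling counts arrays of unlike strains as replicates of a label. STE12 differed by -0.45 between KV2668 and KV473 and by -0.07 between KV68 and KV63. MSB2 differed by -0.64 and -0.67, the latter -0.31 without replicate 3 of KV68. With strain as a random block neither passed, at adjusted p-values of 0.129 and 0.18. The STE12 difference also missed the threshold, at 0.0516 to 0.117, without any single array of KV63, KV473 or KV2668. Without replicate 3 of KV68 MSB2 had -0.53 (adjusted p = 0.00639) and STE12 -0.33 (adjusted p = 0.00475), in a pooling with more arrays of KV2668 than of KV68. PGU1 differed by -1.22 in this pooling, or -1.20 without that array, as a description.

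**Figure D4:**
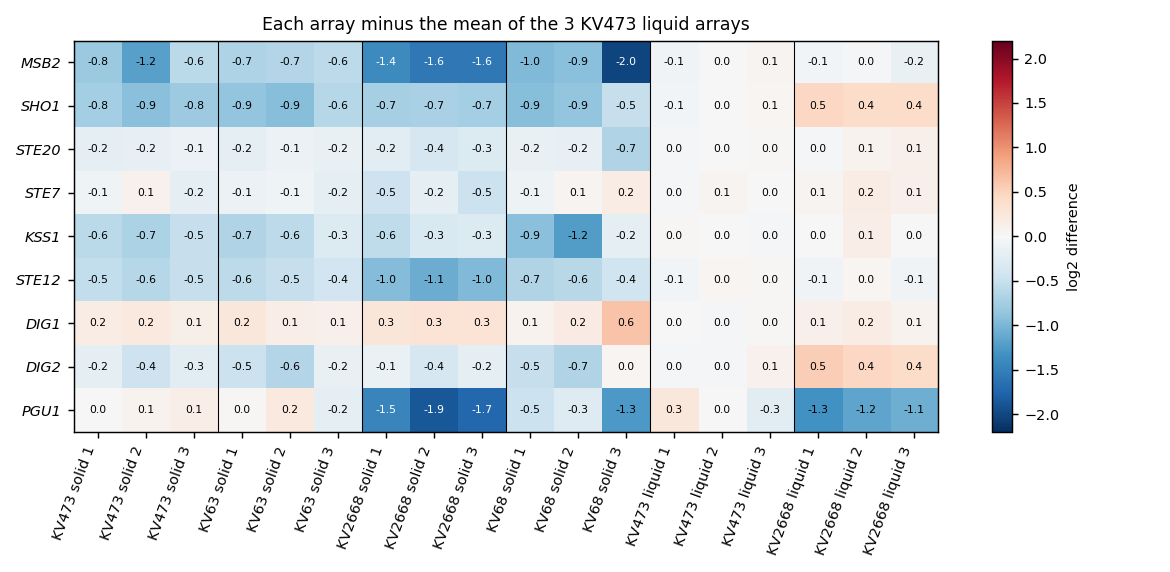
Log2 difference of each array from the mean of the 3 KV473 liquid arrays, for the 9 genes (rows) on the 18 arrays (columns, grouped by strain and medium), in blue where lower and red where higher. Most solid columns are blue for MSB2, SHO1, KSS1 and STE12, the KV2668 columns are blue for PGU1, and the MSB2 cell of KV68 solid replicate 3 is the darkest at -2.0.

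The medium differences of KV2668 and KV473 were compared through the strain by medium term, which uses the same 12 arrays as the comparisons above. In KV2668 the fall on solid medium was larger for MSB2 (-0.55, SE 0.16, adjusted p = 0.0124), STE7 (-0.42, SE 0.12, adjusted p = 0.00917), STE12 (-0.41, SE 0.086, adjusted p = 0.00137), DIG2 (-0.40, SE 0.11, adjusted p = 0.00887) and SHO1 (-0.33, SE 0.083, adjusted p = 0.00483). Of 8 genes 5 were thus lower by this term and none higher, where 27% of all probe sets were lower and 24.8% higher. None was past 2-fold, though 6 had an unadjusted p under 0.05 in limma, with 2.93% of all probe sets lower and 4.22% higher. For STE7, STE12 and MSB2 the strains were close in liquid and apart on solid medium, and for SHO1 and DIG2 they were close on solid medium and apart in liquid. STE20 (-0.19, adjusted p = 0.078), KSS1 (0.15, adjusted p = 0.276) and DIG1 (-0.00, adjusted p = 0.994) did not pass. With all 18 arrays in 6 groups STE7 and STE12 still passed, while the adjusted p was 0.182 for MSB2, 0.165 for DIG2 and 0.095 for SHO1, and DIG2 had 0.0571 after quantile normalization. For PGU1 the term was -0.57, as a description.

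Of the 14 other genes of the filamentation pathway, 4 were higher and 4 lower in colonies of KV2668 than of KV473 at an adjusted p under 0.05, with a median of -0.01, beside -0.01 for all probe sets. These shares were close to those of all probe sets, 29.9% higher and 30.2% lower. TEC1, the partner of Ste12, was lower (-0.34, SE 0.079, adjusted p = 0.00212), as were CDC24, which activates Cdc42 (-0.31, adjusted p = 0.000745), the Ras inhibitor gene IRA1 (-0.35, adjusted p = 0.00236) and RAS2 (-0.20, adjusted p = 0.00829). CDC42 itself, on chromosome XII, was higher (0.58, adjusted p = 1.29e-06), as was IRA2 (0.41, adjusted p = 0.000746). Past 2-fold were YPS1, a cell-surface protease that cleaves Msb2 (1.49, SE 0.14, adjusted p = 1.23e-06), and STE11, the kinase above Ste7 (1.22, SE 0.083, adjusted p = 5.13e-08). Both lie on chromosome XII, where the median difference was 0.81, and 4.35% of all probe sets were higher past 2-fold. In liquid 7 were higher and 1 lower, beside 28.6% and 24.3% of all probe sets. STE11 (1.05, adjusted p = 1.13e-07) and YPS1 (1.21, adjusted p = 6.59e-06) were again higher past 2-fold, beside 4.5% of all probe sets. None of the 14 passed between KV68 and KV63, where 2.3% of all probe sets were higher and 1.92% lower.

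Between media, TEC1 followed the same direction as STE12. Its values in KV2668 were 10.47, 10.70 and 10.59 on solid and 11.49, 11.72 and 11.59 in liquid, a difference of -1.01 (SE 0.079, adjusted p = 4.12e-08), and in KV473 the difference was -0.52 (SE 0.079, adjusted p = 3.18e-05). The strain by medium term of TEC1 was -0.49 (SE 0.11, adjusted p = 0.00236). STE11, on chromosome XII, went the other way and was higher on solid medium in both strains (0.82, adjusted p = 5.88e-07, and 0.99, adjusted p = 9.13e-08). In all, 7 of the 14 were lower and 4 higher in KV2668, beside 45.9% and 34.4% of all probe sets, and 3 lower and 4 higher in KV473, beside 49.2% and 32%.

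Of 8 genes known as targets of Ste12 and Tec1 in filamentation, 7 were tested, among them FLO11, which the labels name as the gene that differs between the strains of a pair. Its strain differences were -7.83 and -8.21 in colonies and it is not counted with the other 6. Of these 6, 3 were lower and 2 higher in KV2668 colonies than in KV473 colonies, beside 30.2% and 29.9% of all probe sets. The G1 cyclin gene CLN1 (-0.76, SE 0.070, adjusted p = 8.33e-07), the cell wall gene SVS1 (-0.59, SE 0.063, adjusted p = 2.86e-06) and TEC1 were lower, and the higher GAS2 and BUD8 lie on chromosome XII. In liquid 4 of the 6 were higher in KV2668 than in KV473, beside 28.6% of all probe sets. With FLO11 counted, 2 of the 7 tested were lower, beside 24.3%. Past 2-fold 3 of the 6 were higher and none lower, beside 4.5% and 3.78% of all probe sets. FLO11 itself had a mean of 5.32 in KV2668 and 13.24 in KV473. The 3 higher were GAS2 (mean 9.68 in KV2668, 8.16 in KV473), DDR48 (12.06 and 10.69) and BUD8 (10.62 and 9.59). Between KV68 and KV63, SVS1 (-0.94, SE 0.15, adjusted p = 0.0144) and BUD8 (-0.51, SE 0.10, adjusted p = 0.0252) were lower, beside 1.92% of all probe sets. Without replicate 3 of KV68 they differed by -0.73 (adjusted p = 0.00124) and -0.47 (adjusted p = 0.0114). CLN1 was lower on solid medium in KV473 (-0.95, SE 0.070, adjusted p = 2.74e-08) and in KV2668 (-1.50, SE 0.070, adjusted p = 3.04e-10). SVS1 was lower on solid medium in KV2668 (-1.27, SE 0.063, adjusted p = 4.92e-10) and, by less, in KV473 (-0.21, adjusted p = 0.00719). DDR48 (1.88, SE 0.096, adjusted p = 6.72e-10) and GAS2 (1.42, SE 0.073, adjusted p = 7.07e-10) were higher on solid medium in KV473, against 0.47 and 0.84 in KV2668.

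The branches that share Ste20, Ste11 and Ste7 or Sho1 were read in the same way. Of 10 genes of the pheromone branch 7 were lower and 2 higher in KV2668 colonies than in KV473 colonies, beside 30.2% and 29.9% of all probe sets. STE3, the receptor of alpha cells (-3.23, adjusted p = 1.65e-12), and STE2, the receptor of a cells (2.65, adjusted p = 4.01e-06), are also on the mating-type marker lists. FAR1, which arrests the cell cycle in response to pheromone (-1.44, SE 0.064, adjusted p = 1.41e-09), and the G protein subunit gene STE4 (-1.02, SE 0.073, adjusted p = 7.58e-08) were lower by over 2-fold. Of all probe sets 1.79% were lower by that rule. In liquid 3 were lower and 1 higher, beside 24.3% and 28.6% of all probe sets, with FAR1 at -1.44 again. Of 12 genes of the HOG branch 7 were higher and 3 lower in KV2668 colonies, beside the same 29.9% and 30.2%, led by the kinase gene HOG1 (1.01, adjusted p = 2.77e-08) on chromosome XII. In liquid 6 were higher and 1 lower, beside 28.6% and 24.3%. Past 2-fold there was RCK2, also on chromosome XII (mean 11.86 in KV2668, 10.81 in KV473), beside 4.5% of all probe sets higher. None of these 10 or 12 genes passed between KV68 and KV63, where 2.3% of all probe sets were higher and 1.92% lower. Without replicate 3 of KV68, 1 of the 10 passed with over 2-fold also required, beside 19 higher and 19 lower of the 5424 probe sets. Over the 42 genes of these lists, 9 lie on chromosome XII, and 8 of these 9 were higher in KV2668 than in KV473 in each medium at an adjusted p under 0.05, out of 15 higher on solid and 18 in liquid. On the whole of that chromosome 92.2% of 462 probe sets were higher in KV2668 on solid medium and 87% in liquid, against 29.9% and 28.6% of all probe sets.

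The pattern of PGU1 over the 18 arrays was closest, by Pearson's correlation, to those of TDA2 (r = 0.947), STE3 (0.940), YDL085C-A (0.928), YGL159W (0.925) and POR1 (0.922). The 18 arrays fall into 6 groups of 3, so these values describe mainly the differences between groups. STE3 had 7.72 to 7.97 in the KV2668 colonies, 10.98 to 11.12 in those of KV473, and 11.12, 11.28 and 8.02 in KV68, so that PGU1 and STE3 were both low on replicate 3. The closest to MSB2 were CLN1 (0.983) and CIS3 (0.977), to SHO1 SWE1 (0.990) and CTR2 (0.986), and to STE12 SRV2 and KAP114 (each 0.987). KSS1 was closest to PML39 (0.959) and PXL1 (0.958), STE20 to FUS3 (0.951) and POT1 (0.949), and STE7 to DLT1 (0.926) and SPO14 (0.913). DIG1 was closest to UGA4 (0.931) and RIM11 (0.930), and DIG2 to TCB3 (0.956) and AAT2 (0.951). None of the 9 genes was among the closest of another.

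PGU1 lies near the end of chromosome X in the RefSeq annotation (assembly R64), with 7 annotated genes beyond it. DAL5, the gene next to it on the side of the centromere, differed by -0.37 between KV2668 and KV473 on solid medium, by -0.14 in liquid and by 1.25 between KV68 and KV63. YJR154W, next to it on the side of the chromosome end, differed by 0.43, -0.13 and 0.56 in the same comparisons. DAN1, 4 genes away and encoding a cell wall mannoprotein, was lower on solid medium by 1.29 (log2 difference -1.29) and by 1.93 (-1.93) in the respective pairs, and differed by 0.10 in liquid, where PGU1 differed by -1.19.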

How the data were processed

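RNA of 18 arrays was read from the deposited table of 7686 probe sets, in which the authors give log2 values computed with RMA (version not stated). All columns matched a labelled array, and the log2 values were used as deposited. Gene symbols came from the platform annotation, with 12 updated through RefSeq, and 1541 probe sets had no symbol or several. Background on each array was the 95th percentile over its probe sets for S. pombe (4.34 to 4.56), and 5424 S. cerevisiae probe sets, those that exceeded this value on 3 or more arrays, were tested. Arrays have no read depth, so their number limits the precision.

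Differences came from limma 3.58.1 (lmFit, eBayes; R 4.3.3), checked on simulated data, with Benjamini-Hochberg adjustment over the 5424 probe sets. KV473 and KV2668 were fitted alone (12 arrays, 8 residual degrees of freedom), KV63 and KV68 with the 6 liquid arrays (8), strains of 1 label in 6 groups (12) and pooled labels in 4 groups (14). Calls used an adjusted p under 0.05, alone or with a log2 difference over 1. The genes and lists were chosen with earlier results of these data known. Named were the 9 genes, FLO11, list genes that passed or differed most, and the probe sets most correlated with each gene. Alternatives changed the filter, scaling, background floor, weights, trend, arrays in the fit and replicate block. Chromosomes and gene order came from RefSeq (assembly R64), and no sequence or coordinate is printed.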

Additional observations from a re-analysis of the deposited data

Results flagged for a closer look

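For 5 of the 8 genes tested the difference between solid and liquid medium was not the same in KV2668 and KV473 by the strain by medium term of limma (log2 differences, adjusted p in the fit of 12 arrays): MSB2 had -0.55 (0.0124), STE7 -0.42 (0.00917), STE12 -0.41 (0.00137), DIG2 -0.40 (0.00887) and SHO1 -0.33 (0.00483). By this term 27% of all probe sets were lower and 24.8% higher. With all 18 arrays in 6 groups MSB2, DIG2 and SHO1 did not pass (adjusted p = 0.182, 0.165 and 0.095). For STE7 and STE12 the solid-medium difference between KV2668 and KV473 departed from that between KV68 and KV63, by -0.50 (adjusted p = 0.0101) and -0.38 (adjusted p = 0.0122). By that comparison 11.1% of all probe sets were lower and 14.5% higher. It was added after the values had been seen. It shares the solid arrays of KV2668 and KV473 with the term above and is not independent of it. Mating-type markers and chromosome XII also set KV2668 apart, and their part in these differences was not tested.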

How the results depend on the processing

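Among the values of the 9 genes, 839 of those under other settings and 677 of those with 1 array left out kept their side of the threshold or, where untested, moved by less than the spread. Of these, 22 and 52 changed sign, none of which passed in either fit. Of the rest, 16 and 13 no longer passed and 20 and 8 newly passed. Untested values that moved by the spread or more numbered 3 and 3. In 4 and 1 the sign turned for a value that passed in either fit or, where untested, exceeded the spread. The counts of genes past both thresholds ranged from 0 to 1 for the medium difference of KV473 with 1 array left out and were otherwise unchanged under the settings run. At an adjusted p under 0.05, the count for KV68 against KV63 was 2 with array weights and 0 to 2 with 1 array left out (0 in the analysis reported). For KV2668 against KV473 it was 3 to 6 on solid medium (in place of 4) and 2 to 3 in liquid (in place of 2) under other settings. For the medium difference of KV473 it was 4 (in place of 7), and for the strain by medium term 2 (in place of 5), with all 18 arrays in 6 groups. That fit takes in the KV68 colonies and their spread, and the cause was not tested. For KV68 against KV2668 it was 8 with array weights, 1 with only the arrays compared and 2 to 6 with 1 array left out (in place of 2). For the pooled labels it was 5 with array weights, 1 with the replicate block, 1 with only the solid arrays, 0 with strain as a random block and 1 to 2 with 1 array left out (in place of 2). For the difference between the pairs it was 5 with array weights (in place of 2).

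Between KV68 and KV2668, STE20 turned to 0.13 with array weights, and DIG1 (0.00) to -0.21 with array weights, with -0.17 to 0.11 when 1 array was left out. Between the pairs, DIG1 turned to 0.26 and MSB2 to -0.47 with array weights. For same-numbered arrays of different groups the correlation of deviations was -0.297 to 0.520 (median 0.0724, over 45 pairs). For differently numbered arrays it was -0.517 to 0.443 (median -0.041, over 90 pairs). These ranges overlapped, and the numbers were not taken as pairs. The replicate block changed no other call of these genes than that of STE12 for the pooled labels, where its adjusted p was 0.0616. Culture independence, the FLO11 labels and the liquid growth time were not resolved, and 3 arrays per group limit the precision.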
